A study of Mus musculus with 12 samples.

Results

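The genes of the 4 opioid receptors, Oprm1 (mu), Oprd1 (delta), Oprk1 (kappa) and Oprl1 (nociceptin receptor), together with Pnoc, which encodes prepronociceptin, were chosen by gene symbol from a table of 33024 genes. All 5 were in the table, and all 5 were among the 16059 genes that passed the expression filter. Bulk RNA was sequenced from the cortex of 12 wildtype C57BL/6 mice, 7 Control and 5 EtOH. All mice belonged to the abstinence arm of a two-bottle choice drinking-in-the-dark paradigm, which started at 30 days of age. Mice of the EtOH group had a bottle of 20% (v/v) ethanol beside a bottle of water for 35 nightly sessions, and mice of the Control group (labelled Vehicle) had 2 bottles of water. After a further 14 days without ethanol, mice of this arm went through a series of behavioural tests (mazes, forced swimming and a rotarod), and brains were taken only when these were finished. Mice were perfused with saline before the cortex was dissected and frozen. The labels number the libraries within each group without stating that each is a separate animal, and if they were not, the p-values would measure technical spread only.

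Opioid receptors are G protein-coupled receptors that act through inhibitory Gi/o proteins. When occupied, they lower cyclic AMP, open inwardly rectifying potassium channels and close presynaptic calcium channels, which reduces transmitter release. The mu and delta receptors respond to enkephalins and beta-endorphin, and the kappa receptor responds to dynorphins. The nociceptin receptor shares their ancestry but responds to nociceptin, which is cut from the Pnoc product. In the forebrain the receptors are known for their roles in reward, aversion, stress and pain, and the opioid system is the target of naltrexone, a drug used in alcohol use disorder.

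Total counts ranged from 31768079 to 42183031 per mouse, and Control mouse 5 and EtOH mouse 1 had deeper libraries than the rest. Levels are given in CPM, a gene's count scaled to a common library total with TMM factors. A floor of 3 counts corresponded to between 0.0711 and 0.0944 CPM, and every member lay above it in every mouse. Groups were compared with the quasi-likelihood test of edgeR. Differences are EtOH over Control on the log2 scale with their standard error (SE), and all p-values from this fit are Benjamini-Hochberg adjusted over 16059 genes. A gene was called when its adjusted p was under 0.05 and its difference exceeded 0.5 in either direction, which 8.29% of all tested genes reached (4.09% lower and 4.2% higher). In bulk tissue, fewer cells of a type, less RNA per cell and a different share of neighbouring regions in the piece cannot be told apart. As a look at the tissue label, 9 markers of cortical excitatory neurons had a summed level of 2373 to 2862 CPM in Control and 2283 to 2848 CPM in EtOH mice. Most of that sum was Slc17a7 (1955 CPM in Control and 1906 CPM in EtOH mice). The sum therefore mostly follows this gene and does not show how much of other regions each piece held. Of the 9 markers, Fezf2 was called higher (log2 difference 0.60, adjusted p = 0.0001004) and none lower. Under the minimum, Tbr1 was lower (-0.40, adjusted p = 0.00222), and Cux2 (0.31, adjusted p = 0.0181) and Neurod6 (0.26, adjusted p = 0.0286) were higher.

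The kappa receptor gene was the only member called, so that 1 of the 5 was called lower and 0 higher. With the adjusted p alone, which 23.7% of all tested genes passed, it was again the only member. Oprk1, the receptor for dynorphins, lies on chromosome 1 of GRCm39 from 5658667 to 5676375 on the plus strand, and no exon of another annotated gene overlaps its exons. In the Control mice Oprk1 ranged from 11.03 to 20.2 CPM with a median of 17.2 CPM. The EtOH mice had 4.87, 3.11, 5.01, 5.37 and 3.34 CPM of Oprk1. The groups did not overlap, and every EtOH mouse lay far below the lowest Control mouse. Oprk1 was the only member without overlap, against 9.81% of all tested genes (4.96% lower and 4.84% higher in EtOH mice). Oprk1 fell from 16.5 ± 3.14 CPM (SD, n = 7) to 4.34 ± 1.04 CPM (SD, n = 5), a difference of -1.92 on the log2 scale (SE 0.16, adjusted p = 2.61e-07). This is a 3.78-fold lower level. By p-value, Oprk1 held rank 69 of the 16059 genes.

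**Figure D1:**
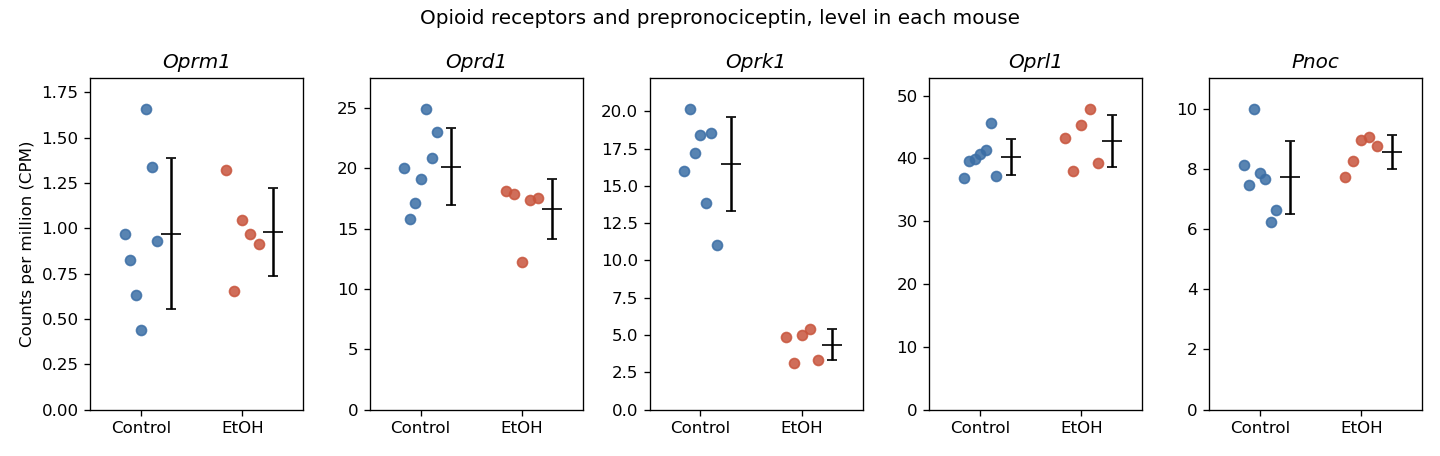
Level of each member in CPM (vertical axis, starting at 0) in 7 Control and 5 EtOH mice; each point is 1 mouse, and the black bars give the mean and SD of the group. The EtOH mice lie between 3.11 and 5.37 CPM for Oprk1, below all Control mice, while the groups overlap for Oprm1, Oprd1, Oprl1 and Pnoc.

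The other receptors for opioid peptides were not called. The delta receptor gene Oprd1, whose product binds enkephalins, lies on chromosome 4 from 131838037 to 131871842 on the minus strand. Oprd1 ranged from 15.8 to 25.0 CPM in the Control mice with a median of 20.01 CPM. In the EtOH mice it was at 18.1, 17.9, 12.3, 17.4 and 17.6 CPM, so that EtOH mouse 3 lay below every Control mouse and the other 4 lay within the Control range. The group levels of Oprd1 were 20.1 ± 3.19 CPM (SD, n = 7) and 16.6 ± 2.47 CPM (SD, n = 5), a difference of -0.28 on the log2 scale (SE 0.12, adjusted p = 0.0924). The interval of 1.96 SE around it spans a level of 0.706 to 0.967 of that in Control mice. The adjusted p rested on single mice, with 0.0461 without Control mouse 2 (difference -0.33) and 0.230 without EtOH mouse 3 (difference -0.18).

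The mu receptor gene Oprm1 encodes the main target of morphine and of beta-endorphin and lies on chromosome 10 from 6708506 to 6988198 on the plus strand. An exon of Ipcef1 on the opposite strand overlaps its exons, so its counts are uncertain, because the strand setting of the counting is not given in the sources used here. Between 14 and 68 reads per mouse were counted on Oprm1, the lowest number of any member. Its level ranged from 0.438 to 1.66 CPM in the Control mice with a median of 0.930 CPM. The EtOH mice had 1.32, 0.653, 1.04, 0.971 and 0.912 CPM of Oprm1, all inside the Control range. The group levels of Oprm1 were 0.971 ± 0.415 CPM (SD, n = 7) and 0.980 ± 0.241 CPM (SD, n = 5), a difference of 0.01 on the log2 scale (SE 0.29, adjusted p = 0.982). Its interval of 1.96 SE spans a level of 0.681 to 1.49 of that in Control mice, so a change of Oprm1 within those bounds is not excluded.

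The receptor and the precursor of the nociceptin system were not called either. Oprl1 lies on chromosome 2 from 181356605 to 181363728 on the plus strand. It ranged from 36.9 to 45.6 CPM in the Control mice with a median of 40.0 CPM. The EtOH mice had 43.3, 37.9, 45.3, 47.9 and 39.2 CPM of Oprl1, of which EtOH mouse 4 lay above the Control range. The group levels of Oprl1 were 40.2 ± 2.89 CPM (SD, n = 7) and 42.8 ± 4.17 CPM (SD, n = 5), a difference of 0.09 on the log2 scale (SE 0.07, adjusted p = 0.363). The interval of 1.96 SE spans a level of 0.970 to 1.17 of that in Control mice. This is the narrowest interval of the 5 members.

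Pnoc, the precursor gene of nociceptin, lies on chromosome 14 from 65638122 to 65663196 on the minus strand and is known in the cortex from inhibitory neurons. It ranged from 6.22 to 10.01 CPM in the Control mice with a median of 7.67 CPM. The EtOH mice had 7.72, 8.24, 8.97, 9.07 and 8.76 CPM of Pnoc, all inside the Control range. The group levels of Pnoc were 7.71 ± 1.22 CPM (SD, n = 7) and 8.55 ± 0.566 CPM (SD, n = 5), a difference of 0.15 on the log2 scale (SE 0.11, adjusted p = 0.331). The interval of 1.96 SE spans a level of 0.960 to 1.28 of that in Control mice.

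Whether the members differed from each other in their change was tested with the log2 ratio of 2 members within each library, from which the scaling of the library cancels apart from the prior count. All 10 pairs were tested by exact permutation (two-sided, all splits of the 12 mice into 5 and 7), adjusted over the 10 pairs. The 4 pairs that contain Oprk1 differed between the groups, each with an exact permutation p = 0.00126, the smallest p these splits can give (adjusted p = 0.00316). The log2 ratio of Oprk1 to Oprl1 moved from -1.30 ± 0.27 (SD, n = 7) to -3.31 ± 0.22 (SD, n = 5), and that of Oprk1 to Pnoc from 1.08 ± 0.33 (SD, n = 7) to -1.0 ± 0.35 (SD, n = 5). The read share of Oprk1 was thus above that of Pnoc in all Control mice and below it in all EtOH mice. The log2 ratio of Oprd1 to Oprk1 was 1.65 higher in EtOH mice and that of Oprm1 to Oprk1 was 2.0 higher, with no overlap of the groups.

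Of the 6 pairs without Oprk1, none passed. The lowest adjusted p-values were those of Oprd1 to Oprl1 (difference -0.36, exact permutation p = 0.0492, adjusted p = 0.0985) and of Oprd1 to Pnoc (difference -0.43, exact permutation p = 0.0631, adjusted p = 0.105). Without Control mouse 3, the latter pair passed (difference -0.53, exact permutation, adjusted p = 0.0260). For the nociceptin receptor and its ligand precursor, the log2 ratio of Oprl1 to Pnoc was 2.38 ± 0.27 (SD, n = 7) in Control and 2.31 ± 0.14 (SD, n = 5) in EtOH mice (exact permutation p = 0.610, adjusted p = 0.762).

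**Figure D2:**
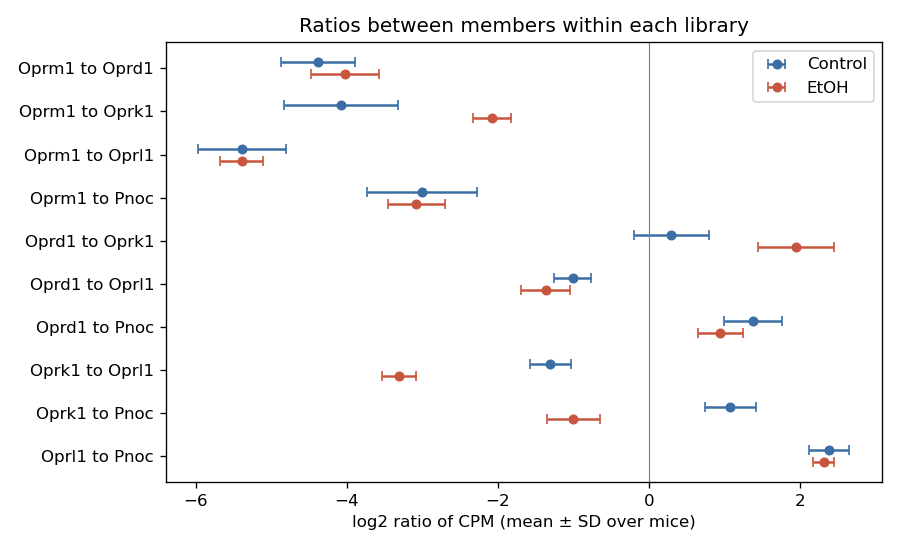
Log2 ratio of CPM between 2 members in the same library (horizontal axis), shown as the mean and SD over 7 Control and 5 EtOH mice for each of the 10 pairs. The 4 pairs with Oprk1 are shifted between the groups, for example from -1.30 to -3.31 for Oprk1 to Oprl1, and the group means of the other 6 pairs differ by at most 0.43 in size.

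Levels of different genes were compared as CPM per kilobase of exon, with the union of exons in the Gencode M39 annotation as length. In the Control mice Oprl1 was highest with 7.61 ± 0.548 CPM per kilobase (SD, n = 7). Oprd1 followed with 4.95 ± 0.785, Pnoc with 3.17 ± 0.501, Oprk1 with 1.79 ± 0.341 and Oprm1 with 0.121 ± 0.0517 CPM per kilobase (SD, n = 7 each). With these lengths, Oprd1 and Pnoc were the only neighbours in this order whose mice overlapped. With the longest transcript as length, Pnoc (3.58 ± 0.565 CPM per kilobase, SD, n = 7) and Oprk1 (3.45 ± 0.657, SD, n = 7) overlapped as well in the Control mice, so the place of Pnoc above Oprk1 there depends on the length used. Oprm1 was then at 0.401 ± 0.172 CPM per kilobase (SD, n = 7), still below the rest. The order of the 5 genes was the same in the EtOH mice, where Oprl1 had 8.10 ± 0.790 and Oprk1 0.472 ± 0.113 CPM per kilobase (SD, n = 5 each), and there only Oprd1 and Pnoc overlapped with either length. As a share of the summed level of the 4 receptors per kilobase, Oprk1 made up 12.4% ± 2.57 (SD, n = 7) in Control and 3.67% ± 0.728 (SD, n = 5) in EtOH mice. Oprl1 made up 52.6% ± 2.25 (SD, n = 7) and 63.3% ± 4.12 (SD, n = 5), and Oprd1 34.1% ± 4.44 (SD, n = 7) and 32.05% ± 4.82 (SD, n = 5). With the longest transcript as length, the share of Oprk1 was 18.8% ± 3.56 (SD, n = 7) and 5.80% ± 1.07 (SD, n = 5). The shares sum to the whole, so a lower share of Oprk1 raises the others.

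The genes of the opioid peptides were examined next, since dynorphin is the ligand of the kappa receptor. Of the 3 precursor genes, 2 were called lower. Penk, the precursor of the enkephalins and an abundant transcript of striatal spiny neurons, ranged from 166 to 524 CPM in the Control mice with a median of 355 CPM. In the EtOH mice Penk was at 39.3, 19.3, 31.4, 23.2 and 15.7 CPM, below every Control mouse. Penk fell from 339 ± 109 CPM (SD, n = 7) to 25.8 ± 9.57 CPM (SD, n = 5), a difference of -3.72 on the log2 scale (SE 0.27, adjusted p = 4.37e-08). An exon of a gene on the opposite strand overlaps the exons of Penk.

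Pdyn, the precursor of the dynorphins, ranged from 25.5 to 72.6 CPM in the Control mice with a median of 51.5 CPM. In the EtOH mice Pdyn was at 17.8, 19.8, 12.4, 15.5 and 18.5 CPM, again below every Control mouse. It fell from 51.7 ± 15.6 CPM (SD, n = 7) to 16.8 ± 2.93 CPM (SD, n = 5), a difference of -1.62 on the log2 scale (SE 0.20, adjusted p = 1.43e-05). Control mouse 7 had the lowest Penk, Pdyn and Oprk1 of the Control group. Pomc, the precursor of beta-endorphin, was near the level of Oprm1 in CPM, with 0.656 ± 0.276 (SD, n = 7) and 0.680 ± 0.123 CPM (SD, n = 5), and had a difference of 0.07 on the log2 scale (SE 0.28, adjusted p = 0.887).

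A wider list held 43 genes of opioid peptide processing and receptor signalling, the 3 precursors included. Of these, 8 were called lower and 3 higher, and 32 were not called. The median log2 difference of the list was 0.0035, and that of all tested genes was 7.2e-05. None of the 5 processing genes was called. In this group, the adjusted p was 0.00188 for Pcsk2, a convertase that cuts prodynorphin and proenkephalin (log2 fold change -0.27), and 0.0266 for the carboxypeptidase gene Cpe (log2 fold change 0.15), both under the fold change minimum. Among 5 peptidase genes, Mme was called lower, and Ece2 had a difference upward under the minimum (0.33, adjusted p = 0.0448). Mme encodes neprilysin, which degrades enkephalins, and fell from 17.1 ± 3.66 CPM (SD, n = 7) to 9.18 ± 0.986 CPM (SD, n = 5), at a log2 difference of -0.90 (adjusted p = 0.000155).

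None of the 5 Gi/o alpha subunit genes was called, and their log2 fold changes lay between -0.10 (Gnai2) and 0.11 (Gnai3). Among 6 receptor kinase and arrestin genes, Grk3 was called higher, with 106 ± 13.1 CPM (SD, n = 7) in Control and 165 ± 12.5 CPM (SD, n = 5) in EtOH mice, at a log2 difference of 0.64 (adjusted p = 1.64e-05). Grk3 encodes a kinase that phosphorylates active receptors before arrestin binds. Grk5 and Arrb1 had log2 differences of -0.46 (adjusted p = 0.000173) and -0.19 (adjusted p = 0.00744), which is under the minimum.

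Of 7 genes for RGS proteins, which end G protein signalling, and their partner Gnb5, 3 were called lower. Rgs9, a striatal RGS protein, had a log2 difference of -3.13 (adjusted p = 1.14e-09). Its partner subunit gene Gnb5 had a log2 difference of -0.57 (adjusted p = 2.63e-05), and that of Rgs4 was -0.63 (adjusted p = 4.50e-05). Rgs19, whose product acts on Gi alpha subunits, had a log2 difference of 0.05 (adjusted p = 0.658).

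Of 10 genes for potassium channels, calcium channels and adenylyl cyclases, 2 were called higher and 1 lower, and all 3 were cyclases. Adcy5, the main striatal adenylyl cyclase, fell from 465 ± 80.0 CPM (SD, n = 7) to 175 ± 19.5 CPM (SD, n = 5), at a log2 difference of -1.41 (adjusted p = 1.84e-07). The calcium-stimulated cyclases Adcy8 and Adcy1 rose, with log2 differences of 1.14 (adjusted p = 1.46e-09) and 0.65 (adjusted p = 0.000710). The Kcnj genes of the potassium channels and the presynaptic calcium channel genes Cacna1a and Cacna1b had log2 fold changes between 0.10 and 0.66 and were not called. Under the minimum, Cacna1b (0.29, adjusted p = 0.00822), Kcnj9 (0.26, adjusted p = 0.0247) and the cyclase gene Adcy6 (0.47, adjusted p = 0.000688) passed the adjusted p upward, and Adcy6 did so without overlap of the groups. Without Control mouse 5, Adcy6 and the channel gene Kcnj6 passed as well, and 5 genes of the wider list were called higher. Of 2 modulators, Gpr139, whose product opposes mu receptor signalling, was called lower at a low level (2.64 ± 1.29 CPM, SD, n = 7, against 1.09 ± 0.225 CPM, SD, n = 5, log2 fold change -1.28, adjusted p = 0.00660), with overlapping groups. Ackr3, a scavenger of opioid peptides, had a log2 difference of -0.30 (adjusted p = 0.0217). Rgs9, Gnb5 and Adcy5 each share exonic sequence with an antisense gene, so their counts are less certain.

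**Figure D3:**
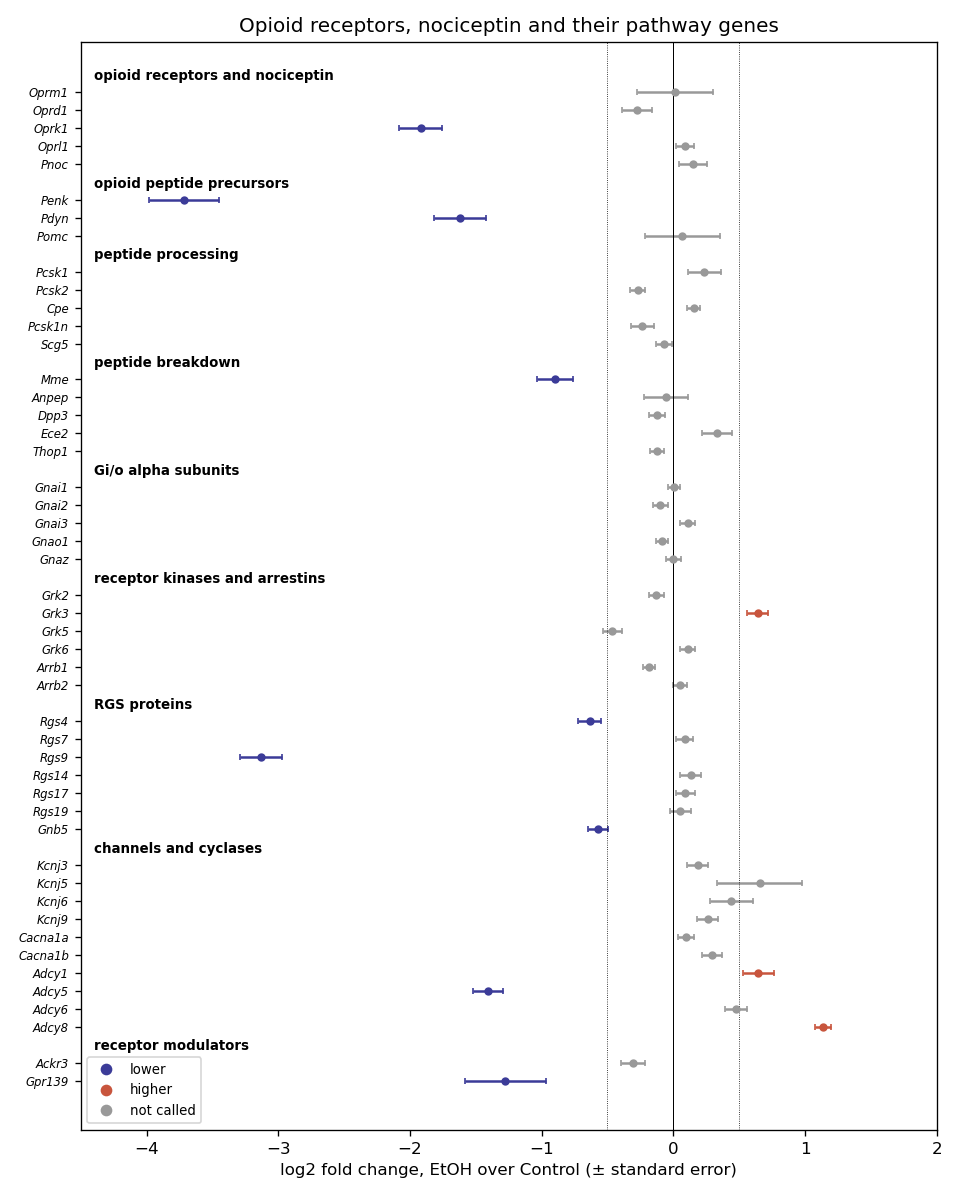
Log2 fold change of EtOH over Control with its standard error (horizontal axis) for the 5 members and 43 pathway genes, grouped by role. Colour gives the call (blue lower, red higher, grey not called), and dotted lines mark 0.5 in either direction. Penk (-3.72), Rgs9 (-3.13) and Oprk1 (-1.92) lie far to the left, and the 5 Gi/o alpha subunit genes lie within 0.11 of 0.

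Markers of other cell types and regions moved with the fall of Oprk1. All 12 genes of a list of striatal spiny neuron markers were called lower, with a median log2 fold change of -2.73, and none was at 0 in all mice. Of all tested genes, 4.09% were called lower and 4.2% higher, and the marker lists were chosen with earlier results of these data known. The summed level of the striatal list ranged from 1021 to 2159 CPM in Control and from 276 to 326 CPM in EtOH mice. Ppp1r1b, Pde10a and Rasd2 were among its most abundant genes. The list holds Rgs9, which is also among the signalling genes above. All 6 genes of a cholinergic neuron list were also called lower, with a sum of 11.1 to 34.8 CPM against 1.73 to 1.93 CPM, and Lhx8 was at 0 counts in every EtOH mouse. Of 12 hippocampal markers, 10 were called higher, with a sum of 140 to 182 CPM in Control and 272 to 370 CPM in EtOH mice. The part of these differences in the level of Oprk1 was not tested.

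Inhibitory interneurons and the claustrum were examined as known sites of Pnoc and of Oprk1. Of 11 interneuron markers, Gad2, Slc32a1 and Lamp5 were called lower and none higher. Gad1 (log2 difference -0.31, adjusted p = 0.00397) went the same way under the minimum, while Adarb2 (0.43, adjusted p = 0.00675) and Htr3a (0.40, adjusted p = 0.0110) went the other way, also under it. Gad1, Gad2 and Slc32a1, which spiny neurons of the striatum use too, were at 397, 241 and 125 CPM in Control and 321, 156 and 73.6 CPM in EtOH mice and made up most of the sum. The summed level of the list was 1166 to 1462 CPM in Control and 940 to 1039 CPM in EtOH mice, and the median log2 fold change was -0.23, while the log2 fold change of Pnoc was 0.15. Of 5 claustrum and endopiriform markers in the table, Nr4a2 and Lxn were called higher, and none lower. Nr4a2 went from 34.0 ± 4.71 CPM (SD, n = 7) to 123 ± 39.6 CPM (SD, n = 5), which carried the rise of the sum, while Synpr (-0.21) and Gnb4 (-0.15) had log2 differences below 0 and were not called. The summed level was 194 to 258 CPM in Control and 236 to 352 CPM in EtOH mice. Of 9 thalamic markers, 8 were tested. Ntng1 (from 23.8 to 52.3 CPM) and Slc17a6 (from 14.6 to 30.9 CPM) were called higher, Synpo2 (log2 difference -0.64) and Tnnt1 (-1.15) were called lower, and the sum was 63.2 to 85.1 CPM against 108 to 125 CPM. The hypothalamic list, which covers a main site of Pomc, had a sum of 3.01 to 9.34 CPM and 1.55 to 13.3 CPM, and of its 9 genes 2 were tested and none called.

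Markers of glia and blood were examined as well. Of 6 oligodendrocyte markers, Mbp and Mobp were called lower, with a summed level of 4285 to 5703 CPM in Control and 2872 to 5139 CPM in EtOH mice. Gfap was called higher among 6 astrocyte markers, whose sums were 2751 to 3282 and 3153 to 3659 CPM. None of the 7 microglial (296 to 324 and 255 to 279 CPM), 4 endothelial (122 to 137 and 121 to 138 CPM) and 4 red blood cell markers (9.12 to 125 and 9.53 to 71.5 CPM) was called.

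Variation among mice of the same treatment was used to see which marker lists each member followed. Within the 7 Control mice, the log2 CPM of each member was correlated with the mean log2 CPM of the striatal, hippocampal and interneuron lists, 15 relations in all. Oprk1 followed the striatal score (Pearson's r = 0.957, exact permutation p = 0.00139, adjusted over 15 relations 0.0208; Spearman's rho = 0.964, exact permutation p = 0.00278, adjusted 0.0417). Control mouse 7 had the lowest striatal score (5.50) and the lowest Oprk1 (11.03 CPM), and Control mouse 2 the highest of both (6.68 and 20.2 CPM). Without the 2 mice farthest from the median score (Control mice 7 and 5), r was 0.743 over 5 mice. With 1 Control mouse left out, r stayed between 0.874 and 0.985, and its adjusted p stayed under 0.05 in 2 of the 7 cases (highest adjusted p = 0.146, exact permutation). For Oprk1 and the interneuron score, r was 0.702 (exact permutation p = 0.0764, adjusted 0.286), and 0.700 without Control mice 2 and 1. For Oprk1 and the hippocampal score, r was 0.140 (exact permutation p = 0.778, adjusted 0.833), and 0.883 without Control mice 5 and 4.

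No correlation was computed within the 5 EtOH mice. The lowest Oprk1 values were those of EtOH mice 2 and 5 (3.11 and 3.34 CPM), which also had the lowest striatal scores (2.76 and 2.75). EtOH mice 1, 3 and 4 had scores of 3.41, 3.23 and 3.19 and 4.87, 5.01 and 5.37 CPM of Oprk1, so that among these 3 the level was higher where the score was lower. None of the other 14 relations over all 7 Control mice passed the adjustment. For Oprm1 and the hippocampal score, the values did not pass (r = 0.827, exact permutation p = 0.0216, adjusted 0.162; rho = 0.821, exact permutation p = 0.0341, adjusted 0.171), and r was 0.422 without Control mice 5 and 4. With only the hippocampal markers of at least 5 CPM, r for Oprm1 was 0.505 (exact permutation, adjusted p = 0.654). Oprd1 tended the other way from the interneuron score (r = -0.768, exact permutation p = 0.0534, adjusted 0.267; rho = -0.857, exact permutation p = 0.0238, adjusted 0.171), with r = -0.718 without Control mice 2 and 1. Without Control mouse 3 this relation passed (r = -0.887, exact permutation, adjusted p = 0.0313). For Pnoc and the interneuron score, r was 0.309 (exact permutation p = 0.514, adjusted 0.810), rho was 0.321 (exact permutation p = 0.498, adjusted 0.679) and r was 0.391 without the same 2 mice.

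**Figure D4:**
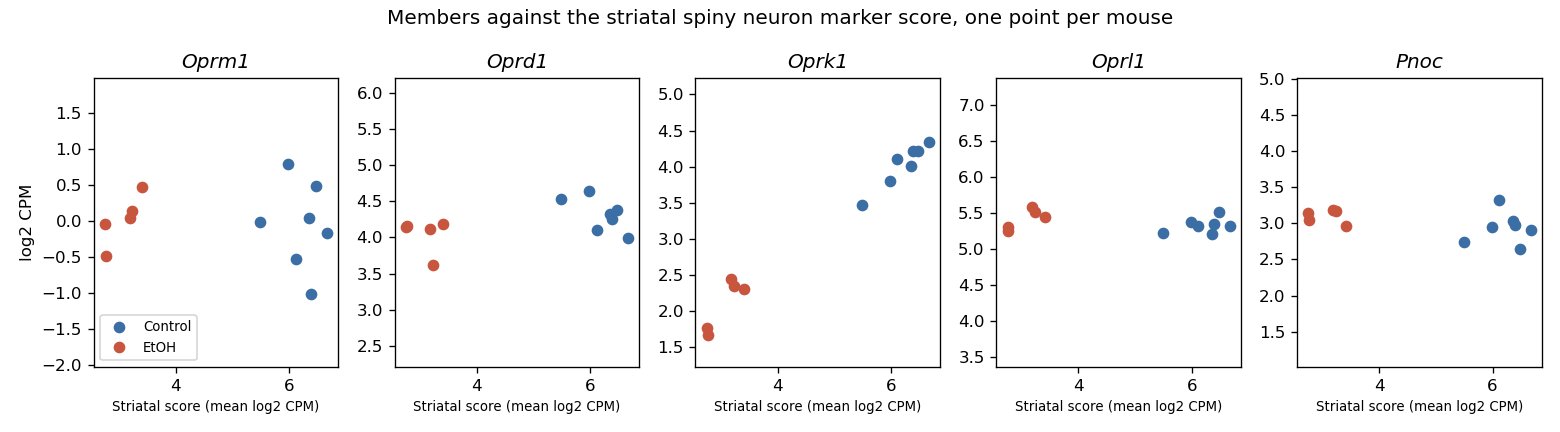
Log2 CPM of each member (vertical axes, each spanning 4 log2 units) against the mean log2 CPM of 12 striatal spiny neuron markers (horizontal axis), 1 point per mouse, Control in blue and EtOH in red. Oprk1 rises with the score among the Control mice (r = 0.957 over 7 mice), and the EtOH mice lie at scores between 2.75 and 3.41, below all Control mice (5.50 to 6.68).

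The genes whose pattern was most like each member were taken over all 12 mice after the group means had been removed, among 11323 genes of at least 5 CPM. With so many genes and only 12 mice, the highest correlations can be large by chance, which was not tested. These correlations are descriptions only. The sources used here do not state how library preparation and dissection were shared among the mice. For Oprk1 the nearest genes were Syndig1l (r = 0.943), Tmem91 (0.926) and Nsg2 (0.925). Syndig1l is also a gene of the striatal list and was called lower (log2 fold change -3.03, adjusted p = 4.37e-08), and Tmem91 was called lower too (log2 fold change -0.60, adjusted p = 0.000565). Nsg2 was not called (log2 fold change 0.05, adjusted p = 0.586). For Oprl1 the nearest genes were Camkv (r = 0.934), Efcab1 (0.920) and Fbxo21 (0.909), and for Oprd1 Tm6sf1 (0.957), Vps8 (0.946) and Zmynd8 (0.945). For Oprm1 they were Smad1 (r = 0.927), Ddb1 (0.905) and Plxnb2 (0.902), and for Pnoc Fbxw5 (0.901), Zdhhc12 (0.882) and Ppp2r3d (0.862). Of these last 12 genes, Efcab1 was called (log2 fold change 0.63, adjusted p = 0.00653).

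Among the members themselves and the ligand precursors, the same measure over 12 mice was 0.848 for Oprk1 and Penk, 0.732 for Oprk1 and Oprl1, and 0.307 for Oprk1 and Pdyn. It was -0.587 for Oprk1 and Oprd1 and -0.102 for Oprl1 and Pnoc. The order of the mice was not the same for Oprk1 and Penk, since EtOH mouse 4 had the highest Oprk1 of its group (5.37 CPM) and a Penk level of 23.2 CPM, below the group mean.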

How the data were processed

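RNA was sequenced by BGI. Before depositing the counts, the authors checked read quality (FastQC 0.11.9), mapped reads with STAR to GRCm39 (Gencode Release 28 gene models) and summarised them per gene by featureCounts. Strand and multi-mapping settings are not given in the sources used here. The authors deposited 1 table of expected counts per gene symbol, not normalized, with values that are not whole for 61 symbols. All 12 columns were matched to a mouse by name. Counts were rounded. Genes were kept with filterByExpr, scaled by TMM and tested with edgeR's quasi-likelihood test (R 4.3.3, edgeR 4.0.16, limma 3.58.1). The authors' own comparison used DESeq2, here an alternative (1.42.0). A standard error (SE) is the log2 fold change divided by the square root of F. Log2 CPM values have a prior count of 2. Positions and exon lengths are from Gencode M39 (GRCm39). Counts of any 2 libraries of a group differed by more than sampling error (chi-square over its degrees of freedom at least 7.76).

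The members and gene lists were chosen with earlier results of these data known. Named genes are the members, called pathway genes, the precursors, up to 4 abundant markers per list and the 3 genes most like each member (no Gm or Rik symbols). Other genes named with values were chosen after their values had been seen. On simulated counts for this comparison (200 genes changed by 1 on the log2 scale, 15905 genes), edgeR recovered 186 with 3 false calls, DESeq2 188 with 4 and limma voom 184 with 2.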

Additional observations from a re-analysis of the deposited data

Results flagged for a closer look

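Of 60 sets of values (a gene, ratio or score within a group), 2 held a mouse far from the others, where chance gives about 3. EtOH mouse 3 had the lowest log2 CPM of Oprd1 in its group (3.62, next 4.12). Without that mouse the log2 fold change of Oprd1 was -0.18 (edgeR adjusted p = 0.230), against -0.28 with all mice. Control mouse 7 had the lowest log2 CPM of the cyclase gene Adcy5 among Control mice (8.27, next 8.77). Without it the log2 fold change of Adcy5 was -1.48 (edgeR adjusted p = 2.10e-09). The same mouse had the lowest striatal score of the Control group, 5.50.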

How the results depend on the processing

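The log2 fold change of Oprk1 lay between -1.99 and -1.92 under RLE and upper quartile factors, filters of at least 1 count in any mouse or 10 in every mouse, no fold change minimum, DESeq2, limma voom and the replicate block (highest adjusted p = 2.36e-06), and between -2.01 and -1.83 with each mouse left out. Under the same settings Oprm1, Oprd1, Oprl1 and Pnoc were not called, and the adjusted p of Oprd1 lay between 0.0461 (without Control mouse 2, difference -0.33) and 0.230. Of the pathway genes, 3 were called higher, 8 without a fold change minimum, 5 with the replicate block (Adcy6 and Kcnj6 were added), and between 3 and 5 with each mouse left out. Between 8 and 12 were called lower. Labels share replicate numbers, but same-numbered mice did not deviate together (correlations between -0.108 and 0.0182), so they share a number only, and the block changed no call of a member. Over the 5 same-numbered pairs of this replicate block, a sign-flip test cannot give an exact p below 0.0625. The log2 ratio differences there were 2.19 for Oprm1 to Oprk1, 1.77 for Oprd1 to Oprk1, -2.09 for Oprk1 to Oprl1 and -2.05 for Oprk1 to Pnoc (adjusted p = 0.156 each, exact). With each mouse left out, the difference for Oprd1 to Pnoc lay between -0.53 and -0.31 and passed in 1 of 12 cases. The correlation of Oprk1 with the striatal score lay between 0.874 and 0.985, and that of Oprd1 with the interneuron score between -0.887 and -0.645, passing in 1 of 7 cases (without Control mouse 3). That of Oprm1 with the hippocampal score fell from 0.827 to 0.505 with only listed genes of at least 5 CPM. The order of the mean levels per kilobase was the same with the longest transcript as length, but Pnoc and Oprk1 then overlapped in the Control mice. The share of Oprk1 among the receptors with that length, computed after seeing the data, was 18.8% in Control and 5.80% in EtOH mice, against 12.4% and 3.67%. Where a result changed with a setting, the cause was not tested. Oprm1 and Pomc were each under 1 CPM on average in both groups, and their standard errors hold spread between mice as well as counting error, which were not separated.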
